A study of Mus musculus with 23 samples.

Results

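Cytosolic ribosomal proteins were examined in connecting tubule and cortical collecting duct, microdissected from mouse kidney, the part of the nephron where aldosterone sets sodium uptake and potassium secretion. Members were chosen by a rule on gene names, with earlier results of these data known. They are the protein-coding genes whose symbol is Rpl or Rps followed by a number, with at most a final a, x or l, together with Rplp0, Rplp1, Rplp2 and Rpsa. This rule found 80 of the 54393 genes in the tables: 46 of the large subunit, 31 of the small subunit and 3 of the P stalk, the flexible arm that recruits elongation factors. Of the 80, 78 passed the low-count filter. Rpl10l and Rpl39l, copies known for their use in testis, did not pass it.

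All 23 libraries came from mice of the genotype Pax8-rtTA, TRE-LC-1, MRflox/flox. Here doxycycline switches on Cre under Pax8 control in tubule cells along the nephron, and Cre removes the floxed part of Nr3c2, the mineralocorticoid receptor gene. Knockout mice had 2 mg/ml doxycycline in 5% sucrose to drink over 2 weeks, then 2 weeks of washout with a rescue diet. Controls carried the same alleles and drank sucrose without doxycycline. Diets lasted 4 days. Controls ate normal potassium in 5 libraries (CT-NK) and high potassium in 6 (CT-HK). Knockouts ate normal potassium in 6 libraries (KO-NK) and low potassium in 6 (KO-LK). Every contrast of knockout with control is therefore also one of doxycycline with none. The labels do not say whether controls ate the rescue diet, so that diet may also set knockouts and controls apart. The labels do not say that each library is a separate animal, so a p-value speaks only for the spread among libraries, part of which may be technical.

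Ribosomal proteins and ribosomal RNA build the 2 subunits that translate every cytosolic mRNA, and the proteins are made in matched amounts. Their mRNAs are among the most abundant in most cells. They typically begin with a 5′ terminal oligopyrimidine (TOP) tract, a cytosine followed by other pyrimidines, through which mTOR and Larp1 control their translation. Myc raises ribosome synthesis in many growing cells. A few members have paralogs that replace them in certain tissues. Rpl3l is one of these: it takes the place of Rpl3 in heart and skeletal muscle.

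The sequences of Rpl3 and Rpl3l are shown first because the results turn on this pair. Both are given for the first 60 coding bases, from the GENCODE transcripts, with capitals where the 2 sequences differ.
Rpl3: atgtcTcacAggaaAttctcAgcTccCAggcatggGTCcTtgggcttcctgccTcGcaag
Rpl3l: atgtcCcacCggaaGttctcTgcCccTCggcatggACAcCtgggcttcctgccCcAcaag
Over these 60 bases 13 differ. Over the whole coding sequence, of 1209 bases in Rpl3 and 1221 in Rpl3l, the global alignment was 73.0% identical. The longest identical run was 22 bases, and the transcripts of Rpl3 and Rpl3l shared none of the 31-base words (0 of 1612 in Rpl3l). No near-identical copy of Rpl3l was found elsewhere in the annotation.

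Promoter sequence from RefSeq (GRCm38.p6) was matched by symbol for 60 of the 80 members. The pair below were picked as members that carry both features marked here, which many members do not. Rpl3l is shown because edgeR called it. Whether such features have a part in the Rpl3l result was not tested. Each window runs from 120 bases before the annotated start to 20 after it. Capitals mark CCGGAAG, the core bound by ETS factors, and a pyrimidine tract that begins within 3 bases of the start.
Rpl38 (chr11:114668460-114668599, plus strand): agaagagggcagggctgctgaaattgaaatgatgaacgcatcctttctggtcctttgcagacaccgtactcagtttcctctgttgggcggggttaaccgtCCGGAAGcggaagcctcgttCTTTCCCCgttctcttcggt
Rps6 (chr4:86857348-86857487, minus strand): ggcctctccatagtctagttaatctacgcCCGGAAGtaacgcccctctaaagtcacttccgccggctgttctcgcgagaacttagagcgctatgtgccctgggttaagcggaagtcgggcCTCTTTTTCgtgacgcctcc
Rpl3l (chr17:24727706-24727845, plus strand): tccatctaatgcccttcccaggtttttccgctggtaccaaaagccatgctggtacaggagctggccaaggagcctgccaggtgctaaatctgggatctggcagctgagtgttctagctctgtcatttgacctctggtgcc
Rpl38 and Rps6 each carry the ETS core and a tract at the start, and the Rpl3l window carries neither. Over windows of 250 bases before to 50 after the start, read on both strands, CCGGAAG occurred in 25 of 60 matched members (41.7%) and in 14.9% of 15428 tested genes matched. ATGGCGG, the core of the YY1 site, occurred in 16.7% of members and 6.83% of genes, and TGACGTCA, the cyclic AMP response element, in 8.33% and 2.83%. CACGTG, the E-box that Myc and Max bind, occurred in 10% of members and 10.1% of genes. TATAAA occurred in 10% of members and 11.8% of genes. Each motif was counted by itself, also where 2 of them overlap, and none of the 5 was in the Rpl3l window. In the GENCODE transcripts, a cytosine followed by at least 4 pyrimidines began within the first 3 bases for 42 of the 78 tested members (53.8%) and for 22.8% of 17522 protein-coding genes. Members had a median of 6 annotated transcripts against 4 for all these genes, which gives them more starts to match. Annotated starts are not exact to the base, so these shares describe the letters, not the use of a site.

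Most members stood within 1 order of magnitude of each other. On the length-scaled TPM scale, 66 of the 80 members had a mean level of 50 to 600 over the 23 libraries, 7 were above 600 and 7 below 50, with a median of 265.5. Abundant members included Rpl41 at 930.3 ± 145 TPM (SD, n = 23), Rps14 at 692.7 ± 124, Rps18 at 650.0 ± 140 and Rpl36 at 649.2 ± 109. Rps14, Rps18 and Rpl36 did not differ beyond their spread. Rpsa, the small-subunit protein also known as a laminin receptor, averaged 365.4 ± 77.9 TPM, Rps6, the target of S6 kinase, 312.4 ± 60.7, and Rplp0, which anchors the P stalk, 441.0 ± 92.2.

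The 7 lowest were of 2 kinds. Rpl3l at 1.88 ± 0.903 TPM, Rpl10l at 0.204 ± 0.246 and Rpl39l at 0.108 ± 0.267 are the paralogs of restricted tissues. Rpl10l was at 0 counts in 5 of the 23 libraries and Rpl39l in 18. Rpl27a (35.0 ± 8.33 TPM), Rps12 (12.9 ± 4.19), Rpl5 (11.4 ± 3.34) and Rpl12 (7.72 ± 2.56) are core proteins of every ribosome, and for these 4 more counts lay on copies of the gene than on the gene itself.

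Ribosomal protein genes have many retrotransposed copies, and 68 of the 80 members had at least 1 other gene whose sequence matched at least 97% of bases over at least 90% of the member's coding sequence. There were 331 such copies, 316 of them annotated as pseudogenes and 14 as protein-coding. Copies held 10.1% of the counts on members and copies together. For 5 members they held over 50%. Rpl5, which with Rpl11 restrains Mdm2 when ribosome assembly fails, had 11682 counts over all libraries against 144336 on copies (92.5%), nearly all on Gm15500 (chr7:114705217-114706235), 100% identical over the match. Gm15500 stood at 267.7 TPM. Copies held 90.7% for Rpl12 and 89.7% for Rps12. For Rpl10, which readies the large subunit for joining, they held 70.3%, chiefly Rpl10-ps3, and for Rpl27a 52.5%. A further 13 members had 10% to 50% on copies, and 48 had under 1%. The share for Rpl5 was 92.2% ± 1.74 in CT-NK (n = 5), 93.3% ± 0.857 in CT-HK, and for the knockouts 92.3% ± 0.514 (KO-NK) and 92.3% ± 1.47 (KO-LK, n = 6 in each of these 3), so the groups differed by about their spread. For Rpl41 the share on copies was 11.5% ± 0.769 and 12.2% ± 1.72 in the control groups and 14.5% ± 0.671 and 15.1% ± 1.54 in the knockout groups. Estimated counts cannot tell identical sequences apart, so the levels of these members are uncertain. Adding each copy's counts to its member changed no call in any comparison.

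**Figure D1:**
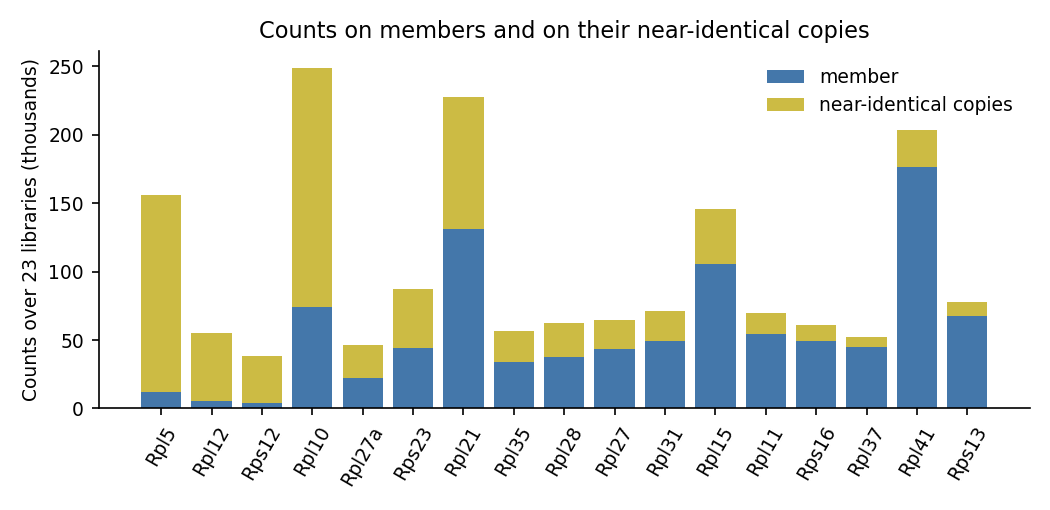
Counts summed over the 23 libraries (vertical axis, in units of 1000) for the members with at least 10% of their combined counts on near-identical copies, with the member in blue and its copies in yellow. Rpl5, Rpl12, Rps12 and Rpl10 have most of their counts on copies, and Rpl41 and Rps13 most on the member. Rpl10l, with 97 counts, is not drawn.

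Overlapping genes were a smaller source of doubt. The library kit does not mark strand, and 17 members overlap another gene of at least 1 TPM. In 6 the overlapping gene exceeded 10% of the member's TPM, among them Rps25 (445.4 TPM) with Trappc4 (78.8) and Rpl35 (83.9 TPM) with Arpc5l (53.8).

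The members moved together from library to library. Over the 23 libraries the Pearson correlation of log2(CPM + 1), with CPM the counts scaled to library size with TMM, between 2 members had a median of 0.841 and quartiles of 0.739 and 0.900, over 3003 pairs that share libraries and depth. The members' median log2 level, centred over the libraries, was negative in every library above 2500 CPM on olfactory and vomeronasal receptor genes. It was lowest in KO-NK replicate 3 (-0.573, at 9123 CPM) and CT-NK replicate 4 (-0.420, 3656 CPM). KO-NK replicate 1 (-0.311, 5100 CPM) and CT-HK replicate 4 (-0.310, 4644 CPM) followed. CT-NK replicate 5 and KO-NK replicates 4 and 5, below 2500 CPM, were negative too. The part of that receptor signal in the correlations was not tested. For 69 of the 78 tested members the correlation with the mean of the others was above 0.8. Rpl19 (0.979) and Rpl13a (0.972) were among the highest. It was lowest for Rpl3l (0.192), Rps12 (0.275), Rpl5 (0.456), Rpl12 (0.614), Rpl10 and Rpl3 (0.654), so 4 of these 6 are members with most counts on copies. Among 11379 other genes with a mean of at least 5 CPM, the median correlation with the members' mean was 0.465. The most alike were Pfdn5 (0.957), a prefoldin subunit, Rps23-ps1 (0.956), Nedd8 (0.956), the ubiquitin-like protein, Mrpl33 (0.949) of the mitochondrial ribosome and Gm2000 (0.946). Next came Med28 (0.938), Gm7536 (0.936), Rps16-ps2 (0.933), Otub1 (0.929) and Naca (0.924), the nascent-chain binding protein. Rps23-ps1, Gm2000, Gm7536 and Rps16-ps2 are near-identical copies of Rps23, Rpl35, Rpl27a and Rps16.

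The share of each library held by the members was compared next. Members held 1.20% ± 0.190 of counts in CT-NK (SD, n = 5; range 1.01% to 1.44%), 1.22% ± 0.132 in CT-HK (1.08% to 1.44%), whereas KO-NK libraries held 1.29% ± 0.119 (1.15% to 1.40%) and KO-LK libraries 1.43% ± 0.169 (1.304% to 1.77%). All 4 ranges overlap. On the TPM scale the shares were 2.14% ± 0.432, 2.05% ± 0.273, 2.52% ± 0.255 and 2.80% ± 0.209 in the same order. There, 5 of the 6 KO-LK libraries lay above all 11 control libraries, whose highest was 2.66%. Genes of the mitochondrial genome held less in the knockouts, and their part in these shares was not tested. They took 10.8% to 19.9% of counts in CT-NK and 13.0% to 21.45% in CT-HK, against 9.40% to 13.4% in KO-NK and 7.93% to 13.3% in KO-LK. Measured only against nuclear protein-coding counts, members held 1.51% ± 0.183, 1.54% ± 0.133, 1.55% ± 0.131 and 1.71% ± 0.168.

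**Figure D2:**
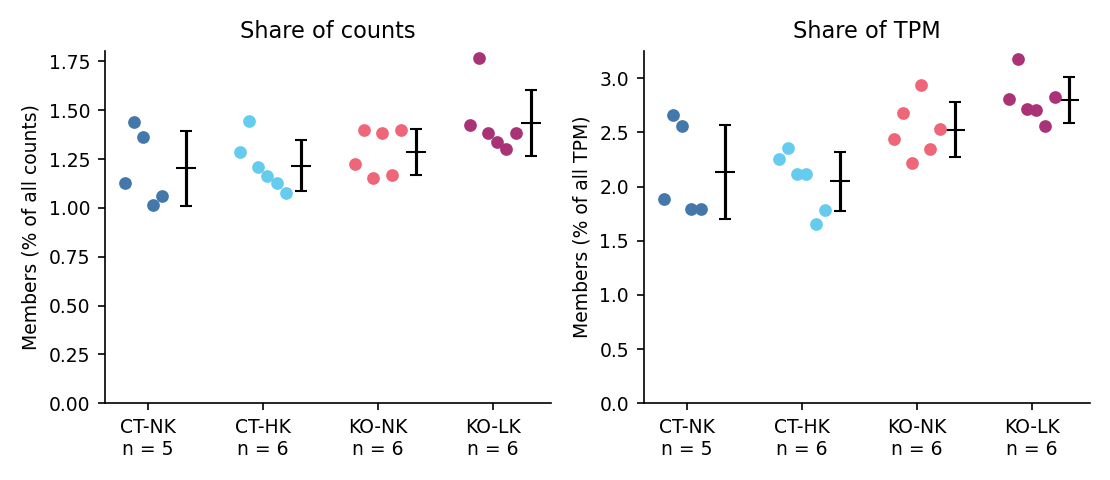
Share of all counts (left) and of all TPM (right) on the 80 members, in percent, with 1 point per library and the group mean ± SD in black beside it. Counts ranged from 1.01% to 1.77% with all groups overlapping, and on the TPM scale the KO-LK libraries, at 2.56% to 3.18%, are the highest group.

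On normal potassium no ribosomal protein mRNA passed the test between knockout and control, and fold changes of the core proteins were small. In KO-NK versus CT-NK, edgeR's quasi-likelihood test called 0 of 78 members higher and 0 lower at an adjusted p under 0.05, where 1.7% of all 25829 genes were called (0.937% higher, 0.763% lower). At an unadjusted p under 0.05 there were 3, all lower, beside 11.7% of all genes (5.71% lower), and DESeq2 called 1, Rpl3l, where it called 2.28% of all genes lower. The median log2 fold change of the 78 was -0.08, beside 0.15 for all genes tested. For 77 members the 95% confidence interval excluded a 2-fold change, and for 64 it excluded a 1.5-fold change. The 3 lowest values were those of Rpl3l (-1.15), Rpl38 (-0.41) and Rps27l (-0.36), and the 3 highest those of Rps12 (0.32), Rpl3 (0.31) and Rpl12 (0.19).

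In the knockout on low potassium 1 member, Rpl3l, passed the test. In KO-LK versus CT-NK, 0 members were higher and 1 was lower by edgeR, where 2.04% of all genes were called (0.914% higher, 1.13% lower). DESeq2 also called 0 higher and 1 lower, where 3.11% of genes were lower. Unadjusted p was under 0.05 for 3 members and for 12.9% of all genes. The median of the 78 was 0.05, beside -0.04 for all genes, and 66 intervals excluded a 1.5-fold change. Rpl3l stood at -2.11. Rpl3 had the highest value at 0.42 (SE 0.18, adjusted p = 0.286). By subunit, the median was 0.05 for the large subunit, 0.05 for the small subunit and -0.12 for the P stalk.

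**Figure D3:**
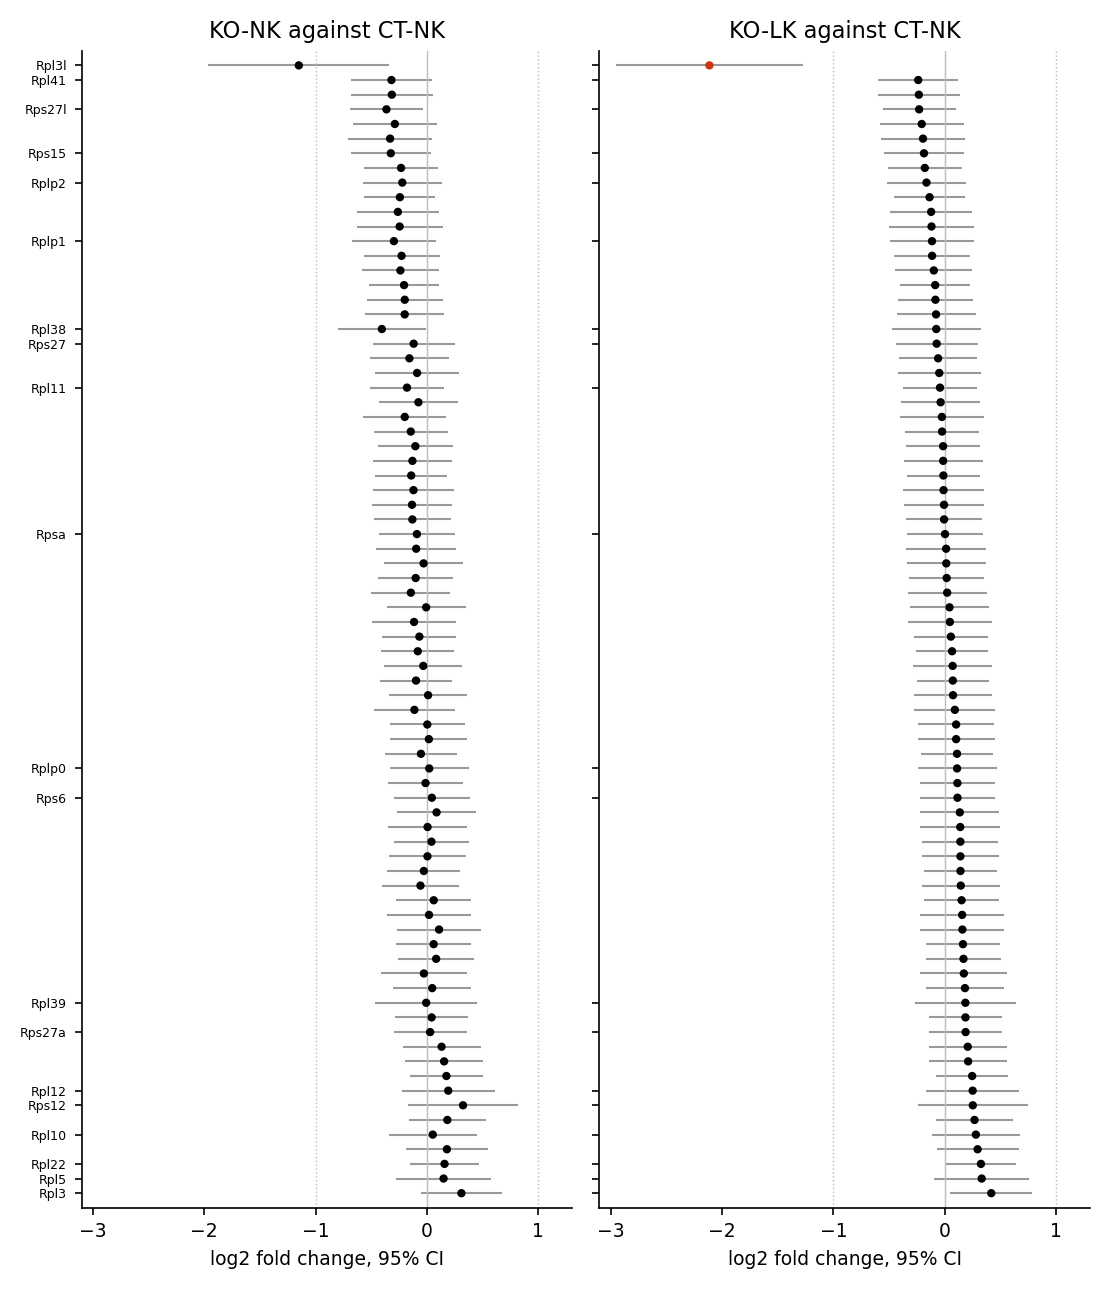
Log2 fold change with 95% confidence interval (horizontal axis, edgeR) for the 78 tested members (1 row each, ordered by the right panel, with names for some) in KO-NK and KO-LK versus CT-NK. Red marks an adjusted p under 0.05, and dotted lines mark a 2-fold change. Rpl3l, the top row, is the only red point, at -2.11 on the right, and the other 77 lie between -0.41 and 0.42.

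Between diets within a genotype, edgeR called no gene at all. In CT-HK versus CT-NK edgeR called 0% of all genes and 0 members, with 0 at an unadjusted p under 0.05 beside 3.59% of all genes, and DESeq2 called 0 members, where 0.0503% of genes were lower. The members' median was 0.15, beside -0.01 for all genes. In KO-LK versus KO-NK edgeR also called 0% of genes and 0 members, with 1 at an unadjusted p under 0.05 beside 2.83% of all genes, and 0 by DESeq2 (0.0542% of genes lower), and the median was 0.12 beside -0.13. In these 2 contrasts 62 and 73 of the members' intervals excluded a 1.5-fold change. KO-LK versus CT-NK and the pooled contrast differ in diet as well as in genotype. KO-NK versus CT-HK also combines genotype and diet. There edgeR called 0 members higher and 1 lower, Rpl3l, where 5.78% of all genes were called (2.46% higher, 3.32% lower). DESeq2 called 11 lower, where 6.78% of genes were lower, and 19 had an unadjusted p under 0.05, all lower, beside 10.1% of all genes that were lower at that p. The median was -0.22, beside 0.21 for all genes. Over pooled knockout and control libraries, again 0 were higher and 1 lower by edgeR, where 10.5% of all genes were called (4.67% higher, 5.86% lower). DESeq2 called 9 lower, where 9.07% of genes were lower, and 14 had an unadjusted p under 0.05, all lower, beside 11.3% of genes. The median was -0.10, beside 0.09. Most of these contrasts share libraries with each other, so their values are not independent.

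Rpl3l (ENSMUSG00000002500, GRCm38 chromosome 17, 24727820 to 24736143, plus strand) was low in every library and, on TMM-scaled CPM, lower in every knockout library. The CT-NK libraries had 2.60, 2.70, 2.68, 2.65 and 3.12 CPM. The CT-HK libraries had 4.01, 3.31, 2.61, 2.30, 2.52 and 4.39 CPM. In KO-NK it stood at 1.02, 0.615, 1.34, 1.22, 1.09 and 2.14 CPM, and in KO-LK at 0.761, 0.838, 0.916, 0.954, 0.178 and 0.169 CPM. All 11 control libraries lay above all 12 knockout libraries, the closest being CT-HK replicate 4 at 2.30 and KO-NK replicate 6 at 2.14. Among the 78 tested members, Rpl3l was the only 1 for which control and knockout libraries did not overlap on this scale. Of all 25829 tested genes, 0.67% did not overlap, 0.422% with the knockouts lower, in a contrast where edgeR called 10.5%. On plain TPM the Rpl3l libraries did overlap, with controls at 1.91 to 3.25 and knockouts at 0.185 to 2.11. These levels rest on 53 to 121 estimated counts per control library and 5 to 52 per knockout library.

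On the log2 scale, Rpl3l fell by 2.11 in KO-LK versus CT-NK (SE 0.40, adjusted p = 0.00532, edgeR). In KO-NK versus CT-HK it fell by 1.36 (SE 0.38, adjusted p = 0.0328). In KO-NK versus CT-NK its log2 fold change was -1.15 (SE 0.39, adjusted p = 0.165), which edgeR did not call and DESeq2 did (-1.17, adjusted p = 0.0339). Over the pooled groups it fell by 1.74 (SE 0.28, adjusted p = 0.000141). Between the control diets its value was 0.21 (SE 0.39, adjusted p = 1.0) and between the knockout diets -0.96 (SE 0.39, adjusted p = 0.928). The call in KO-NK versus CT-HK is fragile. It was lost without any 1 of 9 libraries, with adjusted p from 0.0503 to 0.0936: CT-HK replicates 1, 2 and 6, KO-NK replicates 1, 2, 3, 4 and 5, and KO-LK replicate 1. The KO-LK and pooled calls held without each library in turn, at -2.25 to -1.89 and -1.82 to -1.61.

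For Rpl3, the paralog of Rpl3l, the picture depended on the scale. Its CT-NK libraries had 521.5, 292.3, 500.8, 336.4 and 411.8 CPM, with 386.6 to 607.4 (median 485.7) in CT-HK. The knockout groups stood at 365.8 to 645.1 (median 526.2) in KO-NK and 462.7 to 660.0 (median 558.0) in KO-LK. On this scale controls and knockouts overlap through most of their range, and edgeR called no contrast of Rpl3 with all libraries and the default filter. With the stricter filter of at least 5 CPM in at least 5 libraries, Rpl3 was called higher in KO-NK versus CT-NK (0.30, adjusted p = 0.0229), in KO-LK versus CT-NK (0.38, adjusted p = 0.00531) and in the pooled contrast (0.26, adjusted p = 0.00287). On plain TPM it ran from 218.7 to 324.4 in controls and from 361.3 to 516.4 in knockouts, without overlap. On that scale 5 of the 78 members did not overlap, all with the knockouts higher (Rpl3, Rpl21, Rps19, Rps23 and Rps27a), where 2.46% of all genes had every knockout library higher. Without KO-NK replicate 3, Rpl3 was called higher in KO-LK versus CT-NK (0.45, SE 0.12, adjusted p = 0.0256) and in the pooled contrast (0.34, SE 0.084, adjusted p = 0.0068).

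**Figure D4:**
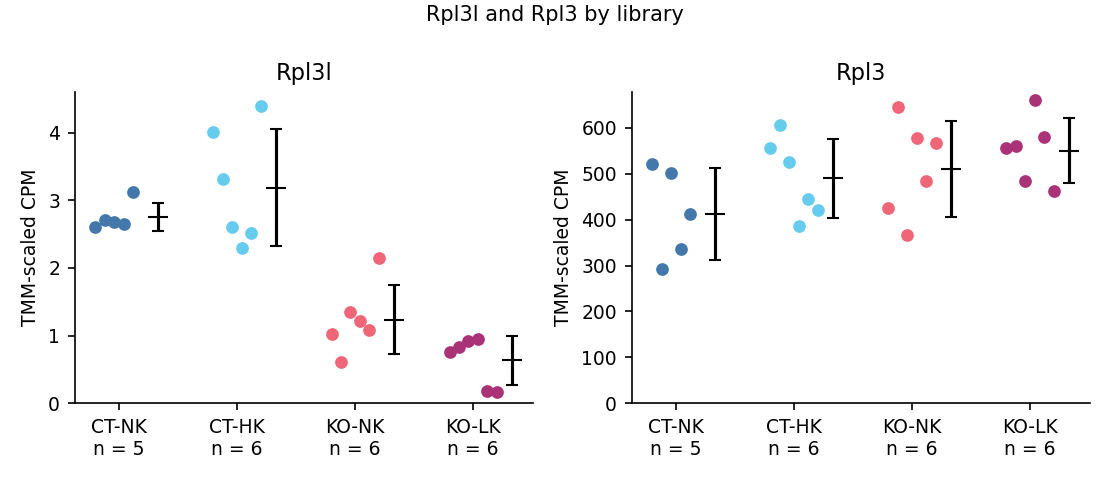
TMM-scaled CPM of Rpl3l (left) and Rpl3 (right) in each library, 1 point per library, with the group mean ± SD in black. For Rpl3l the lowest control library is at 2.30 and the highest knockout library at 2.14, while Rpl3 lies between 292.3 and 660.0 and its groups overlap on this scale.

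The genes beside Rpl3l are more abundant. No annotated gene overlaps it. Ndufb10, a subunit of respiratory complex I, lies 3342 bases upstream on the opposite strand and averaged 406.1 TPM. In KO-LK versus CT-NK it fell by 0.76 (adjusted p = 0.0149), and KO-NK versus CT-HK gave -0.79 (adjusted p = 0.00378). Msrb1, a methionine sulfoxide reductase, begins 499 bases downstream on the same strand and averaged 10.6 TPM. It fell by 1.06 in KO-LK versus CT-NK (adjusted p = 0.0496) and by 0.88 in the pooled contrast (adjusted p = 0.00407). Rps2, a member 5891 bases upstream of Rpl3l at 398.6 TPM, had a pooled log2 fold change of -0.17 (adjusted p = 0.47). The part of these neighbours in the Rpl3l result was not tested.

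Connecting tubule markers differed with genotype, and other marker lists did so less or not at all. Principal cell markers had median sums of 11860 (CT-NK), 11240 (CT-HK), 10280 (KO-NK) and 10190 CPM (KO-LK). The 5 connecting tubule markers summed to 19280 to 63050 CPM over the control libraries and to 4663 to 18650 over the knockouts. In the pooled contrast 3 of the 5 were lower and 0 higher, where 5.86% of all genes were lower and 4.67% higher. In KO-LK versus CT-NK 2 were lower and 1 higher, where 1.13% of all genes were lower and 0.914% higher. The 25 proximal tubule markers, from another segment of the nephron, summed to 380.2 to 45680 CPM in controls and to 593.7 to 8094 in knockouts. Their median sums were 9648 (CT-NK), 1034 (CT-HK), 2017 (KO-NK) and 1027 CPM (KO-LK), so these medians did not follow genotype. In the pooled contrast 8 of these 25 markers were lower, where 5.86% of all genes were lower. No connecting tubule or proximal tubule marker was at 0 in a whole group. Within bulk tissue, fewer cells of a type and less RNA per cell cannot be told apart. Without the 2 libraries richest in proximal tubule markers, CT-NK replicate 5 and CT-HK replicate 6, Rpl3l was -2.06 in KO-LK versus CT-NK (adjusted p = 0.0171). With proximal tubule and thick ascending limb levels as covariates the same contrast was -2.04 (adjusted p = 0.0637). The part of the connecting tubule markers in the Rpl3l result was not tested.

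Among the core proteins, Rps15, of the head of the small subunit, had the smallest adjusted p in 2 contrasts, for which it was chosen after its values were seen. Its CT-NK libraries had 151.5, 115.0, 141.1, 90.1 and 125.0 CPM. It ran from 97.4 to 170.6 (median 143.7) in CT-HK, from 70.7 to 128.5 (median 96.4) in KO-NK and from 85.0 to 147.7 (median 102.2) in KO-LK. The groups overlap, with the knockout medians the lower. Its log2 fold change was -0.49 in KO-NK versus CT-HK (SE 0.17, adjusted p = 0.0832) and -0.34 in the pooled contrast (SE 0.12, adjusted p = 0.0715). Rpl38, a large-subunit protein known for its role in translating Hox mRNAs, was -0.48 in KO-NK versus CT-HK (adjusted p = 0.143) and -0.08 in KO-LK versus CT-NK (adjusted p = 0.999). Its CT-NK libraries had 43.8, 46.8, 56.5, 27.3 and 34.9 CPM, set beside 21.2 to 41.1 CPM (median 30.6) in KO-NK, again with overlap.

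The P stalk and other well-known members stayed uncalled by edgeR with all libraries and the default filter. In KO-NK and KO-LK, each set against CT-NK, log2 fold changes were 0.02 and 0.11 for Rplp0, -0.30 and -0.12 for Rplp1 and -0.22 and -0.17 for Rplp2. Rps6 had 0.04 and 0.11, and Rps27a, made as a fusion with ubiquitin, 0.03 and 0.19. Rpl5 had 0.15 and 0.33 and its partner Rpl11 -0.18 and -0.04. Rpl10 had 0.05 and 0.28, Rpl39, at the exit tunnel, -0.01 and 0.18, and Rpl41, the smallest of these proteins, -0.32 and -0.24. Rps27 had -0.12 and -0.07, and Rpsa -0.09 and 0.00.

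When only genes with at least 5 CPM in at least 5 libraries were tested, which leaves out Rpl3l, standard errors were smaller (0.11 against 0.17 for Rps15 in KO-NK versus CT-HK) and more members were called. In KO-NK versus CT-HK 16 of 77 were lower, where 15.7% of 12421 genes were lower, and 0 higher, where 12.8% were higher. Rpl24 (-0.39, adjusted p = 0.0044) and Rps15 (-0.42, adjusted p = 0.00449) were among them. In the pooled contrast 17 were lower, where 20.8% of genes were lower, and 2, Rpl3 and Rpl22, were higher, where 17.4% of genes were higher. In KO-NK versus CT-NK 5 were lower (Rpl29, Rpl38, Rpl41, Rps15 and Rps27l), where 11.3% of genes were lower, and Rpl3 was higher, where 8.53% were higher. In KO-LK versus CT-NK Rpl3 (0.38, adjusted p = 0.00531) and Rpl22 (0.28, adjusted p = 0.0271) were higher, where 8.17% of genes were higher, and 0 were lower, where 11.1% were lower. All lower calls in KO-NK versus CT-HK under this filter were of -0.42 to -0.25 on the log2 scale.

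The direction of the core proteins depended on the scale. On log2(TPM + 1) without further scaling, limma called 18 members higher in KO-NK versus CT-NK, 49 in KO-LK versus CT-NK, 38 in KO-NK versus CT-HK and 62 in the pooled contrast. On that scale 11.3%, 16.1%, 20.7% and 30.3% of all genes were called higher, and in the pooled contrast 95.9% of all calls were higher. The members' median was 0.28, 0.44, 0.32 and 0.38 in these contrasts, beside 0.20, 0.13, 0.29 and 0.22 for all genes. Once the TPM were multiplied to a common TMM scale, limma called 0 members higher in any contrast, where 0.956%, 1.23%, 2.3% and 4.85% of genes were higher in the same 4, and the medians were -0.09, 0.11, -0.18 and -0.04. Rps15 shows the shift: its log2 fold change in KO-NK versus CT-HK was 0.07 on plain TPM and -0.49 on TMM-scaled counts. Rpl3l was below 0 on both scales in these 4 contrasts, and on plain TPM limma called it in KO-LK versus CT-NK and in the pooled contrast. A single small RNA, Gm24245, held 15.0% to 27.1% of TPM in each library.

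**Figure D5:**
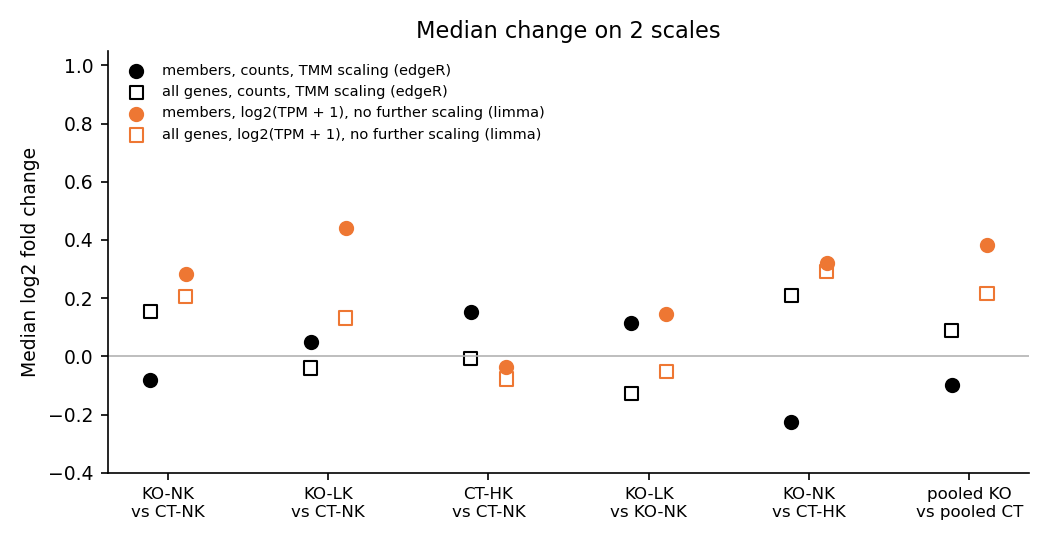
Median log2 fold change (vertical axis) of the 78 tested members (filled circles) and of all 25829 tested genes (open squares) in 6 contrasts, from TMM-scaled counts (black, edgeR) and from log2(TPM + 1) without further scaling (orange, limma). The 2 scales give opposite signs for the members in KO-NK versus CT-NK, CT-HK versus CT-NK, KO-NK versus CT-HK and the pooled contrast.

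Transcript length also went with the changes. Length here is that of each gene's longest annotated transcript, which need not be the form expressed. By it members are short, with a median of 1100 bases (383 to 5179) against 3337 for all tested protein-coding genes. In KO-NK versus CT-NK the 63 protein-coding genes outside the set with transcripts of up to 500 bases had a median log2 fold change of 0.00. For those above 500 and up to 1000 bases it was -0.33. The median was -0.12 for those above 1000 and up to 2000 bases and 0.18 for those above 4000 bases. With an offset for the transcript length implied by counts and TPM in each library, the members' median was -0.08 in that contrast, as without it. It was 0.10 in KO-LK versus CT-NK, -0.17 in KO-NK versus CT-HK and -0.03 in the pooled contrast, where it was 0.05, -0.22 and -0.10 without the offset. With the offset it was 0.09 between the control diets and 0.17 between the knockout diets. In that fit edgeR called 0 members higher in any contrast, where 0.825%, 1.18%, 2.42% and 4.77% of genes were higher in the 4 contrasts of knockout with control.

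Of 6 tested ribosomal proteins outside the name rule, 2 were lower in the pooled contrast and 0 higher, where 5.86% of all genes were lower and 4.67% higher. Rpl36al was among the lower ones (-0.41, SE 0.13, adjusted p = 0.0441). Fau, which yields a small-subunit protein, was -0.25 (adjusted p = 0.141). Rack1, which sits on the small subunit, was 0.06 (adjusted p = 0.91). On plain TPM limma called 4 of the 6 higher in the pooled contrast, where 30.3% of all genes were higher.

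Mitochondrial ribosomal proteins translate the mitochondrial genome, and most genes listed as such fell in knockouts on the scaled counts. The list was made by symbol (Mrpl or Mrps and a number), so a listed gene, such as Mrps36, need not be part of that ribosome. In the pooled contrast 52 of 78 were lower and 0 higher by edgeR, where 5.86% of all genes were lower, with a median of -0.40, beside 1 of 78 lower and a median of -0.10 for the cytosolic members and 0.09 for all genes. Mrps21 fell by 0.69 (adjusted p = 0.000242), Mrps36 by 0.66 (adjusted p = 0.000349) and Mrpl34 by 0.75 (adjusted p = 0.000365). With the length offset 32 were lower in the pooled contrast. By edgeR, KO-NK and KO-LK versus CT-NK called 3 and 2 lower, where 0.763% and 1.13% of all genes were lower. On plain TPM limma called 5 higher and 0 lower in the pooled contrast, with a median of 0.05, where 30.3% of all genes were higher. The ratio of the 2 sets within a library does not depend on scaling between libraries. Counts on mitochondrial ribosomal proteins came to 40.1% ± 2.25 of those on cytosolic ones in CT-NK (SD, n = 5), 40.2% ± 1.34 in CT-HK, and in the knockouts to 32.2% ± 2.66 (KO-NK) and 30.6% ± 2.20 (KO-LK, n = 6 in each of these 3). The control libraries ran from 37.1% to 43.1% and the knockout libraries from 28.0% to 36.5%, without overlap. In TPM the ratio was 24.6% to 27.6% in controls and 18.6% to 24.2% in knockouts, also without overlap. The ratio was examined after the lists' values were seen, and no test was made of it.

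On the scaled counts, other parts of the translation machinery changed in few genes, in a pooled contrast where 4.67% of all genes were higher and 5.86% lower. Of 23 elongation factors and other RNAs with a known TOP, edgeR called 3 higher and 0 lower in the pooled contrast: Snhg1 (1.03, adjusted p = 5.21e-06), Hnrnpa1 (0.76, adjusted p = 0.000131) and Gas5 (0.54, adjusted p = 0.00253). Snhg1 and Gas5 are hosts of small nucleolar RNAs, and Hnrnpa1 is a splicing factor. Eef1a1, the main elongation factor, was 0.23 (adjusted p = 0.338) and Eef2 -0.26 (adjusted p = 0.255). Of 28 initiation factors only Eif1a was called, higher by 0.74 (adjusted p = 8.44e-05). Of 54 ribosome biogenesis genes 3 were higher and 1 lower: Nop58 (0.46, adjusted p = 0.00305), Rrp1b (0.44, adjusted p = 0.0282) and Taf1d (0.32, adjusted p = 0.0448) above 0 and Nop10 (-0.50, adjusted p = 0.0112) below it. Npm1 was 0.30 (adjusted p = 0.175), Ncl -0.11 (adjusted p = 0.883) and Fbl -0.08 (adjusted p = 0.934). On plain TPM limma called 18 of the 23, 23 of the 28 and 42 of the 54 higher in the pooled contrast, and none lower, where 30.3% of all genes were higher.

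Of 24 genes that control TOP mRNAs or ribosome synthesis, 3 were higher and 0 lower in the pooled contrast. There 4.67% of all genes were higher and 5.86% lower. Myc stood at 0.609 to 5.16 CPM over the control libraries and at 16.5 to 93.0 over the knockouts, with no overlap, and rose against CT-NK by 3.78 in the KO-NK libraries (SE 0.49, adjusted p = 0.00026) and by 3.62 in the KO-LK ones (SE 0.49, adjusted p = 0.000254). Mxd1 (0.42, adjusted p = 0.029) and Mnt (0.52, adjusted p = 0.034), which compete with Myc for Max, rose in the pooled contrast. Larp1 was -0.01 (adjusted p = 0.986). Of 19 listed genes, Trp53 and targets of p53, 10 were higher and 0 lower in the pooled contrast, beside the same shares of all genes. They were led by Cdkn1a (1.36, adjusted p = 1.75e-07), Btg2 (1.68, adjusted p = 1.04e-05) and Gdf15 (3.03, adjusted p = 1.52e-05). On plain TPM limma called 17 of the 24 and 16 of the 19 higher, where 30.3% of all genes were higher. Rps27l, a paralog of Rps27 known as a p53 target in other cells, was -0.29 by edgeR (SE 0.11, adjusted p = 0.0994).

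Libraries held 16158408 to 34154475 estimated counts. Nr3c2, the targeted gene, was lower by 0.94 in the pooled contrast and stood at 66.6 to 151 CPM in CT-NK, 70.2 to 145 in CT-HK. The knockout groups stood at 47.7 to 71.4 (KO-NK) and 34.1 to 74.1 (KO-LK), so controls and knockouts overlap. Markers of principal cells, intercalated cells and connecting tubule were present in all groups. In 8 libraries, olfactory and vomeronasal receptor genes together exceeded 2500 CPM. Without them Rpl3l was -2.10 in KO-LK versus CT-NK (adjusted p = 0.0941) and -1.75 in the pooled contrast (adjusted p = 0.0048).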

How the data were processed

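Salmon (version given as 0.14.10) and the build GRCm38.p6 are named in the submitters' processing notes. The authors deposited expected counts per gene, estimated by that tool, and TPM. Depth was 16158408 to 34154475 counts. Symbols and positions came from GENCODE mouse release 21. After rounding (35.9% of values were not whole), edgeR 4.0.16 was run with TMM scaling, filterByExpr, a mean for each group over all 23 libraries, the quasi-likelihood F test and Benjamini-Hochberg adjustment over 25829 genes at 0.05. Adjusted p-values are edgeR's except where DESeq2 1.42.0 or limma 3.58.1 (log2 of TPM plus 1) is given. CPM are TMM-scaled. Copies were sought with blastn 2.17.0. Scripts were tested on simulated counts. Named members are called ones, the 3 highest and lowest in KO-NK versus CT-NK, the 5 most abundant and a set list, and each other list gives up to 3 called genes per contrast and a set list. Other members were named after their values were seen, and some genes are not reported here. Members and lists were chosen with earlier results of these data known.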

Additional observations from a re-analysis of the deposited data

Results flagged for a closer look

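The highest or lowest library of a group was set against the range of the others for the shares of counts and TPM and for 19 members, 84 group-wise values in all, of which chance alone would flag about 1 in 20. There were 3 such values. KO-LK replicate 2 held 1.77% of its counts on cytosolic ribosomal proteins, against 1.304% to 1.43% in the other 5 libraries of its group. In the same library Rpl41 stood at 366.1 CPM, against 229.0 to 277.9 in the others. Rpl3l stood at 3.12 CPM in CT-NK replicate 5, against 2.60 to 2.70 in the other 4, so this library is farther from the knockouts than the rest of its group. It is also the CT-NK library richest in proximal tubule markers, at 25930 CPM. The part of those markers in its Rpl3l level was not tested.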

How the results depend on the processing

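Members were called lower and higher in different numbers under other settings. Lower calls in KO-NK versus CT-NK went from 0 to 1 with DESeq2 and with TMM-scaled TPM in limma, an alternative chosen after seeing the data, and to 5 with at least 5 CPM in 5 libraries, which also gave 1 higher. That filter leaves Rpl3l untested in every contrast, so its counts cannot hold the Rpl3l call. In KO-LK versus CT-NK the filter gave 2 higher and 0 lower. There the 1 lower call, Rpl3l, became 0 with proximal tubule and thick ascending limb covariates. It also became 0 without the 8 libraries above 2500 CPM on chemoreceptor genes. In KO-NK versus CT-HK the 1 lower call became 11 with DESeq2, 4 with its size factors in edgeR and 16 with the 5 CPM filter. With those size factors 4.73% of all genes were lower. It became 0 with no low-count filter, plain TPM at either pseudocount, the length offset, the replicate block, and without the 2 proximal-rich or the 8 chemoreceptor-rich libraries. In the pooled contrast it became 9, 4 and 17 under the first 3 of these settings, the last with 2 higher, where the size factors gave 7.31% of all genes lower. Plain TPM gave 18, 49, 38 and 62 higher at a pseudocount of 1 and 18, 48, 38 and 62 at 0.1, in KO-NK versus CT-NK, KO-LK versus CT-NK, KO-NK versus CT-HK and pooled, with medians of 0.28, 0.44, 0.32 and 0.38 at both. The share of counts, as a share of TPM, was 2.14%, 2.05%, 2.52% and 2.80% in CT-NK, CT-HK, KO-NK and KO-LK, and of nuclear coding counts 1.51%, 1.54%, 1.55% and 1.71%. The cause of these shifts was not tested. Leaving out 1 library at a time gave 0 to 1 higher in KO-LK versus CT-NK and in pooled, 0 to 6 lower in KO-NK versus CT-HK and 1 to 6 lower in pooled. The 6 in each came without CT-HK replicate 4, where 4.93% and 7.24% of all genes were lower. The pooled count was 4 without CT-NK replicate 4 (5.84% of genes lower) and without KO-LK replicate 2 (5.37%). The higher call came without KO-NK replicate 3, where 3.38% and 9.19% of genes were higher. Replicate numbers did not visibly pair the libraries. Same-number correlations ran from -0.702 to 0.711 over 33 pairs, with a median of -0.152, against 0.026 for other numbers. So wide a range cannot exclude a batch shared by number. With the replicate block Rpl3l in KO-NK versus CT-HK was -1.38 (adjusted p = 0.0756). Rpl3l rests on 5 to 121 counts per library, which limits its precision.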
